A study of Mus musculus with 13 samples.

Results

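Genes for neuropeptides or their precursors were followed in excitatory neurons harvested from the mouse claustrum, a thin sheet of cells between the insular cortex and the striatum. They were Cck, Penk, Pdyn, Tac1, Adcyap1, Crh, Grp, Nts, Scg2 and Cartpt, taken by name as 10 of the 23427 gene rows held in the deposited count tables. Their values were read in cells with at least 1 count of Snap25, a gene of neurons, and at least 1 count of Slc17a7, which encodes a glutamate transporter of excitatory neurons. Cells with counts of both Gad1 and Gad2, the genes for the enzymes that make GABA, were left out. Of 1112 harvested cells, 1011 passed the first rule, 4 of these were removed by the second, and 1007 were kept. Tac1, Crh, Nts, Gad1 and Gad2 are not listed in the table of 1 of the 4 mice, so that mouse has values for 7 of the 10 genes and its cells could not be screened for Gad1 and Gad2.

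The cells came from 4 mature male C57BL/6 (labelled WT and B6) mice and were picked by hand from microdissected slices into 13 plates. In the first animal, here the blind mouse, a retrograde virus carrying GFP had been placed in the anterior cingulate cortex to outline the claustrum, and cells were picked without regard to GFP (238 kept cells, 3 plates). In the other 3 animals, projection mice 1, 2 and 3, fluorescent retrobeads had been injected into the lateral entorhinal cortex (LEC, green) and the retrosplenial cortex (RSC, red), and cells were taken by their label as LEC-projecting (286 kept cells), RSC-projecting (244) or Unlabeled (239). An Unlabeled cell is one without bead label, and its targets are not known. Each plate of the projection mice held cells of 1 mouse and 1 label, except for plate 12 of projection mouse 3. That plate held 44 LEC-projecting and 34 RSC-projecting kept cells. In projection mice 1 and 2 plate and label therefore cannot be told apart. The Unlabeled cells of projection mouse 3 were all on plate 8, so the same holds for them. Kept cells had a median of 26023 counts in the blind mouse and of 138535 to 154406 in the projection mice. Counts were summed over the cells of a group in each mouse and are given as counts per 1000000 summed gene counts (CPM), and the mouse was the replicate. Reads came from the barcoded 3′ end of transcripts, so levels were not divided by transcript length. Whether counts were collapsed to molecules is not given in the sources used here, so intervals on shares of cells cover counting error only.

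Neuropeptides are cut from larger precursor proteins in the secretory pathway, stored in dense-core vesicles and released more slowly than glutamate or GABA, to act on G protein-coupled receptors of nearby cells. Cck encodes the precursor of cholecystokinin, which is abundant in the forebrain, in many excitatory cortical neurons as well as in a class of interneurons. Penk and Pdyn encode the precursors of the enkephalins and the dynorphins, which are opioid peptides. Adcyap1 encodes PACAP, Grp gastrin-releasing peptide, Cartpt the CART peptides, Tac1 substance P and neurokinin A, Crh corticotropin-releasing hormone and Nts neurotensin. Scg2 encodes secretogranin II, a granin that is stored in dense-core vesicles and is itself cut into peptides such as secretoneurin.

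A further split of the cells was made by Synpr (synaptoporin), a marker gene of the claustrum. Cells with at least 200 CPM of Synpr are called Synpr-high (435 cells) and the others Synpr-low (572 cells). Synpr-high cells made up 39.0% to 47.5% of the kept cells of each mouse, 86.1% of the RSC-projecting cells, 15.7% of the LEC-projecting cells and 28.0% of the Unlabeled cells of the projection mice. As a check of the excitatory label, 19 interneuron markers, which include the Gad1 and Gad2 that the rule used and that the blind mouse lacks, together summed to 2.89 to 19.7 CPM in the Synpr-high cells of a mouse. In Synpr-low cells they summed to 125 to 981 CPM, of which 122.5 to 980.9 CPM was Npy, the neuropeptide Y gene, which is a marker of interneurons elsewhere. Striatal projection neuron markers (13 genes) summed to 224 to 349 CPM in Synpr-high and to 323 to 391 CPM in Synpr-low cells, and glial and vascular markers (18 genes) to 52.6 to 400 and to 57.2 to 634 CPM.

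Cck was the most abundant of the 10 genes in every mouse. Its level was 4502 CPM in the blind mouse and 5194, 4699 and 5054 CPM in projection mice 1, 2 and 3. Scg2 came next, at 683 CPM in the blind mouse and 643, 756 and 807 CPM in the projection mice. Within a mouse Cck exceeded Scg2 by 6.22 to 8.08 times, and the ranges over mice did not overlap. Penk followed with 61.9 CPM in the blind mouse and 30.7, 40.7 and 44.3 CPM in the projection mice, below Scg2 in each. Cck, Scg2 and Penk thus kept their order in all 4 mice.

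Grp, Adcyap1 and Cartpt formed a lower group, each below Penk in every mouse, whose order among themselves changed from mouse to mouse. Grp was at 2.03 CPM in the blind mouse and at 20.1, 10.01 and 7.76 CPM in the projection mice. Adcyap1 was at 2.304 CPM in the blind mouse and at 9.26, 8.69 and 3.05 CPM in the projection mice. Their ranges and that of Cartpt (4.201, 5.05, 2.95 and 7.47 CPM in the same order) overlapped, so these neighbours did not differ beyond the spread between mice. Pdyn was at 0.813 CPM in the blind mouse and at 1.85, 3.999 and 0.388 CPM in the projection mice, a range that overlapped that of Cartpt. Tac1, Nts and Crh were at or near 0 in all 3 projection mice. Their highest levels in a mouse were 0.813, 0.481 and 0.0601 CPM, and they are described cell by cell further on.

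**Figure D1:**
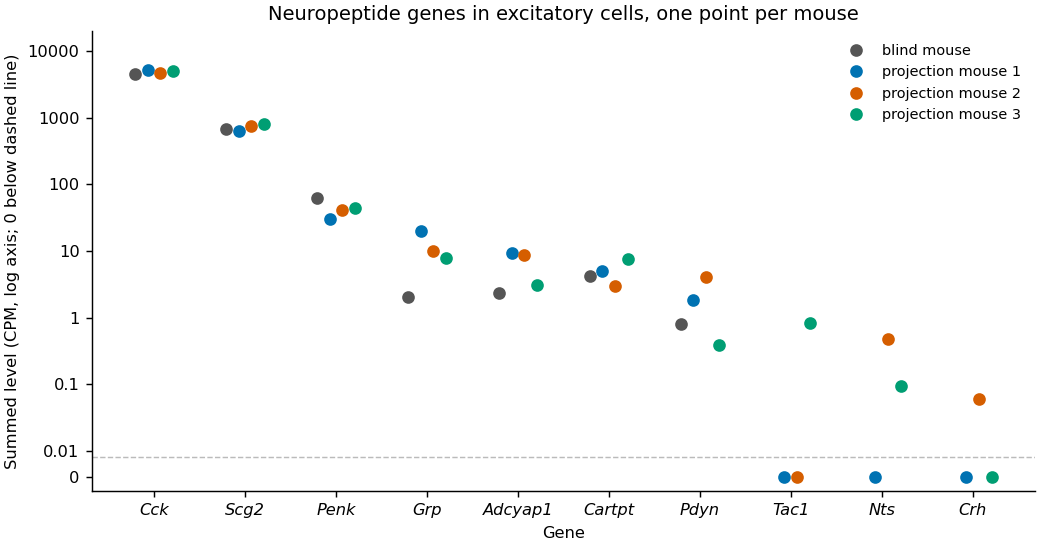
Level of each neuropeptide gene in the kept excitatory cells of each mouse, in CPM of the summed counts on a log axis, with values of 0 drawn under the dashed line. Each point is 1 mouse, the blind mouse has no point for Tac1, Nts and Crh, and Cck (4502 to 5194 CPM), Scg2 (643 to 807 CPM) and Penk (30.7 to 61.9 CPM) stand in the same order in every mouse.

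The genes also differed in how many cells carried them. Cck was counted in 1000 of the 1007 cells (99.3%) and Scg2 in 941 (93.4%), so both were close to general in these neurons. Penk was counted in 241 cells (23.9%), with a median of 117 CPM in the cells that had it and a highest value of 2321 CPM. Grp was counted in 82 cells (8.14%), Adcyap1 and Cartpt in 69 cells each (6.85%) and Pdyn in 13 (1.29%). After every cell was thinned to 20000 counts, which left out 84 shallower cells, 67 of them from the blind mouse, the share averaged over mice was 98.0% for Cck, 91.6% for Scg2, 18.5% for Penk, 6.53% for Grp, 4.29% for Cartpt and 3.77% for Adcyap1. The less widespread genes also rested on fewer cells. The 10 cells with the most counts held 4.21% of all Cck counts and 10.3% of those of Scg2, against 27.4% for Penk, 41.7% for Grp, 50.3% for Cartpt, 55.05% for Adcyap1 and 97.8% for Pdyn.

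The promoters of the 2 most abundant members and of the 2 sparse members with the opposite Synpr patterns given further on are shown here, since these 4 genes differ in level and in the cells that carry them. The sequences are RefSeq promoters on GRCm38.p6, a later build than the NCBIM37 that the submitters' processing notes name, and run 5′ to 3′ along the gene, from 250 bases before the start of transcription to 50 bases after it. They lie at chr9:121495645-121495944 on the minus strand for Cck, chr1:79439977-79440276 on the minus strand for Scg2, chr13:99900634-99900933 on the minus strand for Cartpt and chr17:93198918-93199217 on the plus strand for the second of 2 listed Adcyap1 starts. Capitals mark matches to 5 motifs searched on both strands: TGACGTCA (the cyclic AMP response element), TGCGTCA (a similar site), TGANTCA (the AP-1 site), CACGTG (an E-box) and TATAAA (the TATA box).
Cck: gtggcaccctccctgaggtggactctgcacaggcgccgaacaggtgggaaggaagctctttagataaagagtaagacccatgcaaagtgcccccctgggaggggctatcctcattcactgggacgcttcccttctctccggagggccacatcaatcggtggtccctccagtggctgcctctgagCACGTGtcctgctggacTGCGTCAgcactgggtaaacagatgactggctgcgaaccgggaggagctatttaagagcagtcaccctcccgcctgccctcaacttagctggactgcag
Scg2: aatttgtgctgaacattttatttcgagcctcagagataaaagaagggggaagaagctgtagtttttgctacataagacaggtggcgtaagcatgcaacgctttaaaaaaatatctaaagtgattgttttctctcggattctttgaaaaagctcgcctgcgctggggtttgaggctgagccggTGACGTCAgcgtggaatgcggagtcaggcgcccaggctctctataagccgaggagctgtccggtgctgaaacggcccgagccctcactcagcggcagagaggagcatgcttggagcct
Cartpt: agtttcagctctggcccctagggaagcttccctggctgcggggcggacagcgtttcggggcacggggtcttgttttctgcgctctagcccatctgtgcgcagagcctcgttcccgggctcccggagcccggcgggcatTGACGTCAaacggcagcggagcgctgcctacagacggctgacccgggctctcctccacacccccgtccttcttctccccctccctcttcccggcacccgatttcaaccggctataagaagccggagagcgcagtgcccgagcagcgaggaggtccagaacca
Adcyap1: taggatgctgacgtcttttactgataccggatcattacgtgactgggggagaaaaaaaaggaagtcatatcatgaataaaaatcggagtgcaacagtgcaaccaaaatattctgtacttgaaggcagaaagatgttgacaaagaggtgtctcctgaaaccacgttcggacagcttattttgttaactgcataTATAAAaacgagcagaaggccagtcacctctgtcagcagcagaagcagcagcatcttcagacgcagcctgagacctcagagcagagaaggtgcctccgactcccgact
The Scg2 promoter held TGACGTCA at position -68 and the Cartpt promoter at position -112 relative to the start, a motif found in 1.79% of the 32851 RefSeq promoters of this length. The Cck promoter held TGCGTCA at position -49 (2.12% of all promoters) and CACGTG at position -66 (7.15%). The second Adcyap1 promoter held TATAAA at position -58 (13.6%), and the first start of that gene had no match to any of the 5. A match here is a run of letters and was not tested as a site. Promoters were listed for 7 of the 10 genes.

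The Synpr split asks whether the peptide genes differ between excitatory classes of the claustrum. Adcyap1 and Grp were close to absent from Synpr-high cells and were carried by Synpr-low cells, Cartpt showed the opposite pattern, Cck was higher in Synpr-high cells by a smaller factor, and Scg2, Penk and Pdyn did not pass the test. Of the 7 members that passed the filter on low counts, 4 were called by edgeR's quasi-likelihood test at a Benjamini-Hochberg adjusted p under 0.05, 2 in each direction, where 9.21% of the 13404 genes tested were called (1235 genes, or 2123 with the mouse as a block). The median log2 difference of the 7 members was -0.01, against -0.000265 over all genes tested. Tac1, Crh and Nts were not in this fit, because the blind mouse has no value for them.

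Adcyap1 was at 0.289, 0.110, 0.161 and 0.480 CPM in the Synpr-high cells of the blind mouse and of projection mice 1, 2 and 3, from 1, 2, 2 and 13 counts. In the Synpr-low cells of the same mice it was at 4.08, 18.2, 13.8 and 5.63 CPM. The lowest Synpr-low value was thus above every Synpr-high value, and the log2 difference was -5.20 (SE 0.70, adjusted p = 0.00118, n = 4 mice per class). Among Synpr-low cells the share with a count of Adcyap1 was 4.0% in the blind mouse and 18.4%, 13.6% and 7.26% in the projection mice, and among Synpr-high cells it was between 0.885% and 2.72%. After thinning, the share was 3.39% to 10% in Synpr-low cells of a mouse and 0% to 1.36% in Synpr-high cells.

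Grp followed the same course. It had no count in the Synpr-high cells of the blind mouse and of projection mouse 3, 1 count in those of projection mouse 1 and 12 counts, all from 1 cell, in those of projection mouse 2 (0.964 CPM). In Synpr-low cells it was at 3.83, 39.6, 15.4 and 15.6 CPM in the blind mouse and projection mice 1, 2 and 3, carried by 5.60%, 22.8%, 17.4% and 10.6% of the cells. The groups did not overlap, and the log2 difference was -6.12 (SE 1.14, adjusted p = 0.00736). The 0 of 113 and 0 of 147 Synpr-high cells of the blind mouse and projection mouse 3 allow shares of up to 2.65% and 2.04%. Without projection mouse 1 the log2 difference was -4.99 and the call was lost (adjusted p = 0.0768, within a range of 0.000513 to 0.0768 over 18 alternatives).

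Cartpt was carried by Synpr-high cells. It was at 8.38, 8.58, 7.31 and 14.9 CPM in the Synpr-high cells of the blind mouse and projection mice 1, 2 and 3, and at 0.510, 1.61, 0.336 and 0 CPM in their Synpr-low cells. These groups did not overlap either, and the log2 difference was 4.05 (SE 0.94, adjusted p = 0.0226). The share of cells with a count was 9.73%, 14.9%, 14.8% and 19.0% among Synpr-high cells. Among Synpr-low cells it was between 0% and 1.47%, and the 0 of 179 Synpr-low cells of projection mouse 3 allows a share of up to 1.68%. The call was lost without projection mouse 2 (log2 difference 3.93, adjusted p = 0.119) and when only cells without bead label, those of the blind mouse included, were used (3.76, adjusted p = 0.0877), within a range of 1.02e-05 to 0.119 over 19 alternatives.

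Cck was at 4768 CPM in the Synpr-high cells of the blind mouse and at 6362, 6050 and 6053 CPM in those of the projection mice. In Synpr-low cells it was at 4266, 4054, 3890 and 4052 CPM in the same order. The means were 5808 ± 709 and 4065.5 ± 154 CPM (SD, n = 4 mice), Synpr-high cells were above Synpr-low cells in each mouse, and the log2 difference was 0.56 (SE 0.09, adjusted p = 0.00247), a factor of 1.48. Every one of the 435 Synpr-high cells had a count of Cck. This difference depended on which Synpr-low cells were included, as given below with the clusters.

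Scg2 was at 851, 648, 712 and 718 CPM in the Synpr-high cells of the blind mouse and projection mice 1, 2 and 3, and at 535, 637, 782 and 897 CPM in their Synpr-low cells. The classes overlapped, and the log2 difference was 0.10 (SE 0.15, 95% interval -0.20 to 0.41, adjusted p = 0.83). Scg2 is known as a gene that neuronal activity raises, and of 15 activity-regulated genes tested beside it, 1 was called, Jun (log2 difference -1.49, adjusted p = 0.00736), where 9.21% of all genes were, and the median of the 15 was 0.51. Penk was at 65.0, 26.6, 31.1 and 49.4 CPM in Synpr-high cells and at 59.2, 34.7, 46.4 and 39.1 CPM in Synpr-low cells. Its log2 difference was -0.01 with a 95% interval of -0.62 to 0.60 (adjusted p = 0.996), so differences inside that interval were not excluded. Pdyn was at 1.73, 0.880, 1.04 and 0 CPM in Synpr-high and at 0, 2.79, 5.77 and 0.777 CPM in Synpr-low cells, from at most 3 cells of a class in any mouse, and its 95% interval was wide (-3.95 to 1.11, adjusted p = 0.641).

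**Figure D2:**
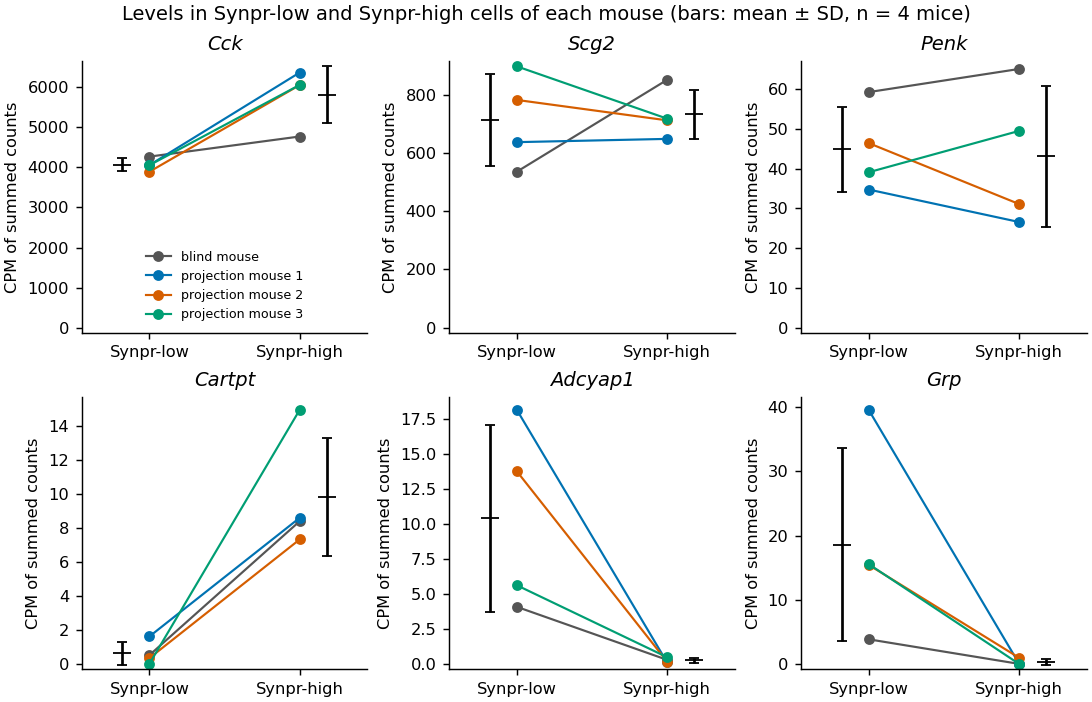
Level of 6 neuropeptide genes in the Synpr-low and Synpr-high cells of each mouse, in CPM of summed counts from 0 on linear axes, with a line for each mouse and bars for mean ± SD over 4 mice. Cartpt was higher in Synpr-high cells, Adcyap1 and Grp were higher in Synpr-low cells of every mouse, and the lines of Scg2 and Penk cross.

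Within plates, where both classes shared a library, 12 plates held at least 5 cells of each class. Cck was higher in the Synpr-high cells of 11 of these plates, all but plate 1 (3613 against 3808 CPM in Synpr-low cells), and Cartpt in those of 11 (equal in the remaining plate). Grp was higher in the Synpr-low cells of 11 plates and lower in those of plate 4 (0 against 2.15 CPM, from 1 cell), and Adcyap1 was higher in those of 10 plates and equal in 2. Penk was higher in Synpr-high cells in 6 plates and in Synpr-low cells in 6, and Scg2 in 8 and 4. The direction of the 4 called genes was thus seen inside most of these plates. Cells of the plates are also part of the sums tested above, so this is a description. The cells with deep cortical markers, taken up below, were included.

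Because Synpr-low cells could hold more than 1 kind of cell, clusters were also made from all cells after the 10 rows had been removed, and levels are given for them as a description. Cells fell into a core-like cluster of 433 cells, 429 of them Synpr-high, a shell-like cluster of 462 cells, 456 of them Synpr-low, and a deep-cortical-like cluster of 112 cells, all Synpr-low. The names follow lists of markers of each. Synpr, Car3 and Prkcd led the first by fold, Npy, Dcn and Slc30a3 the second and Rprm, Foxp2 and Cplx3 the third. In the third, 10 deep cortical markers summed to 1173 CPM against 25.8 and 37.2 CPM in the core-like and shell-like clusters. The 9 core markers summed to 7919 CPM in core-like, 728 CPM in shell-like and 238 CPM in deep-cortical-like cells. The 8 shell markers parted the clusters less, with 3644 CPM in shell-like, 2298 CPM in deep-cortical-like and 475 CPM in core-like cells. Deep-cortical-like cells made up 29.7% of the Unlabeled cells of the projection mice and 13.4% of those of the blind mouse, but 1.40% of the LEC-projecting and 2.05% of the RSC-projecting cells.

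The deep-cortical-like cells had the lowest levels of Cck, Penk and Scg2 in each mouse. Cck was at 1912 CPM there in the blind mouse and at 625, 475 and 471 CPM in projection mice 1, 2 and 3. In projection mice 1 and 2, 1 cell held 46.95% and 59.7% of these counts. The median cell was at 1777 CPM in the blind mouse and at 68.6, 45.8 and 293 CPM in the projection mice. In shell-like cells Cck was at 5324, 4858, 4467 and 4488 CPM, and in core-like cells at 4718, 6373, 6050 and 6035 CPM. Cck was thus lowest in the deep-cortical-like cluster in every mouse, while core-like cells were above shell-like cells in the 3 projection mice and below them in the blind mouse. Penk had no count in the deep-cortical-like cells of 3 mice and 12 counts from 1 cell in the fourth (3.83 CPM), against 26.6 to 69.3 CPM in core-like and 42.8 to 79.0 CPM in shell-like cells. Scg2 was at 140 to 594 CPM in deep-cortical-like cells, against 647 to 878 CPM in core-like and 639 to 992 CPM in shell-like cells. Adcyap1 was found mainly in shell-like cells (5.62, 22.4, 16.5 and 6.34 CPM) and was at 0 to 0.319 CPM in deep-cortical-like cells. Grp was shared between the shell-like cells (4.22, 37.0, 18.5 and 17.2 CPM) and the deep-cortical-like cells, where 10 of 34 cells of projection mouse 1 carried it (50.1 CPM) and the other mice were at 0 to 2.78 CPM. Cartpt was at 7.13 to 14.8 CPM in core-like cells and at most at 2.23 CPM elsewhere.

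These levels bear on the Cck comparison. When the 112 cells with counts of at least 4 of the 10 deep cortical markers were left out, of which 104 belong to the deep-cortical-like cluster, Cck was at 4768, 6506, 6050 and 6046 CPM in Synpr-high cells and at 5162, 4892, 4496 and 4459 CPM in Synpr-low cells of the blind mouse and projection mice 1, 2 and 3. Synpr-high cells were still above Synpr-low cells in the 3 projection mice, but not in the blind mouse. The log2 difference became 0.34 and was no longer past the threshold (adjusted p = 0.0508, within a range of 2.9e-05 to 0.0508 over 19 alternatives). Cartpt, Adcyap1 and Grp kept their calls without these cells.

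**Figure D3:**
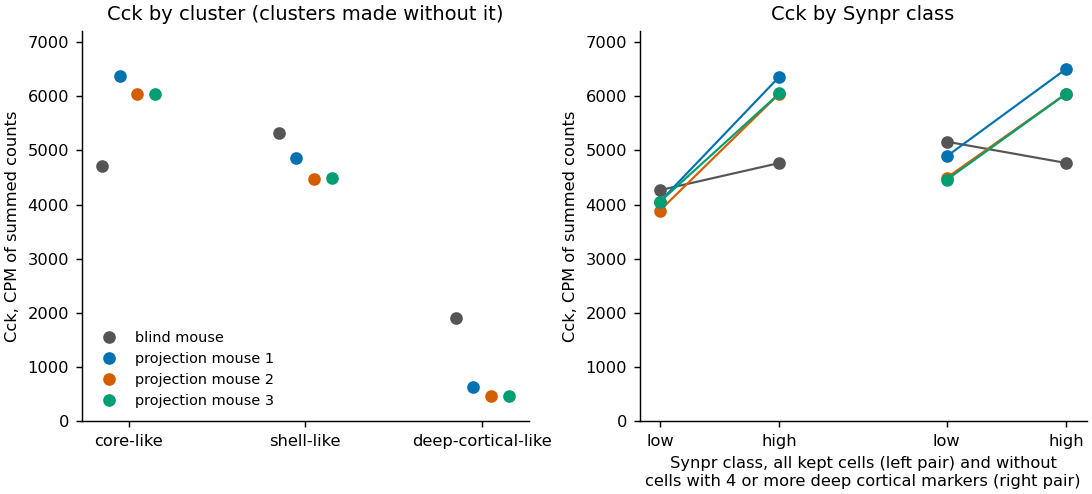
Cck in CPM of summed counts, 1 point per mouse, by cluster made without the 10 neuropeptide rows (left) and by Synpr class with all kept cells and without cells that have 4 or more deep cortical markers (right). Deep-cortical-like cells sit at 471 to 1912 CPM, under all points of the other clusters, and the line of the blind mouse turns downward once such cells are left out.

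The projection labels ask whether peptide genes differ between neurons with separate cortical targets. RSC-projecting cells had more Cck and less Adcyap1 and Grp than LEC-projecting cells of the same mice, while Penk, Scg2, Cartpt and Pdyn did not pass the test. Of 7 members tested, 3 were called, where 4.15% of the 13952 genes tested were called (579 genes). The median log2 difference of the 7 was -0.40, against -0.00151 over all genes. The 3 members are also among those that differed between the Synpr classes, and the labels differ in their share of Synpr-high cells as given above.

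Cck was at 6243, 6262 and 6298 CPM in the RSC-projecting cells of projection mice 1, 2 and 3. In LEC-projecting cells it was at 5215, 4414 and 4132 CPM, below every RSC value, and the log2 difference was 0.49 (SE 0.10, adjusted p = 0.0187, n = 3 mice). Adcyap1 was at 0.231, 0 and 0.155 CPM in RSC-projecting cells, from 3, 0 and 3 counts, and at 15.1, 11.5 and 6.52 CPM in LEC-projecting cells. It did not overlap between the labels, with a log2 difference of -6.12 (SE 0.92, adjusted p = 0.00452). Grp was at 1.54, 1.70 and 0.931 CPM in RSC-projecting cells, where 1 cell of each mouse held all its counts, and at 18.5, 20.02 and 11.8 CPM in LEC-projecting cells (log2 difference -3.59, SE 0.74, adjusted p = 0.0217). Without projection mouse 2 all 3 calls were lost (adjusted p = 0.221 for Cck, 0.0879 for Adcyap1 and 0.0984 for Grp), and without projection mouse 3 those of Cck (0.157) and Grp (0.191). Over 15 alternatives the adjusted p ranged from 0.000261 to 0.221 for Cck, 3.28e-09 to 0.0879 for Adcyap1 and 2.03e-06 to 0.191 for Grp.

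Plate 12 held both labels of projection mouse 3, so its values compare cells of 1 library and have no test. There Cck was at 6575 CPM in RSC-projecting and at 4887 CPM in LEC-projecting cells. Adcyap1 was at 0.407 and 7.63 CPM, with 64 of the 68 LEC counts from 1 cell, and Grp at 0 and 7.18 CPM. The direction of the 3 called genes was therefore the same within this plate as between plates, though for Adcyap1 it rested largely on 1 cell. The plate is also part of the sums of projection mouse 3 tested above. Penk was at 71.7 and 31.2 CPM, Scg2 at 611 and 973 CPM and Cartpt at 2.304 and 0 CPM in RSC-projecting and LEC-projecting cells of the plate.

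Among the members that were not called, Scg2 was at 640, 682 and 641 CPM in RSC-projecting and at 753, 804 and 1092 CPM in LEC-projecting cells, values that did not overlap (log2 difference -0.40, SE 0.17, adjusted p = 0.27). Cartpt was at 4.55, 8.93 and 12.3 CPM in RSC-projecting cells and at 1.86, 1.63 and 0 CPM in LEC-projecting cells (2.94, SE 1.15, adjusted p = 0.213, or 0.0342 with DESeq2 and 0.00577 in thinned cells, within a range of 0.00577 to 0.544 over 15 alternatives). Pdyn had no count in the RSC-projecting cells of projection mice 1 and 3 and 2 counts in those of projection mouse 2, against 2.54, 6.62 and 1.01 CPM in LEC-projecting cells. It was not called by edgeR (adjusted p = 0.155) but was by DESeq2 (0.0163), within a range of 0.0163 to 0.634 over 14 alternatives, and its LEC counts came from 5 cells in all. Penk was at 27.7, 47.6 and 63.9 CPM in RSC-projecting cells and at 48.7, 35.7 and 46.9 CPM in LEC-projecting cells, with an overlap and a log2 difference of 0.12 (95% interval -0.92 to 1.16, adjusted p = 0.952).

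Unlabeled cells of the projection mice gave a further set of values, with the RSC and LEC cells used again, so these comparisons share samples with the one above. In each mouse the Unlabeled cells had a plate of their own, so label and plate cannot be told apart in these comparisons. Between RSC-projecting and Unlabeled cells 1.70% of the 13952 genes were called (237 genes), and the same 3 members were among them, where the median log2 difference of 7 members was 0.12 against -0.00248 over all genes. Adcyap1 was at 12.7, 10.6 and 1.87 CPM in Unlabeled cells (log2 difference -5.73, SE 0.91, adjusted p = 0.0151) and Grp at 48.4, 5.44 and 11.2 CPM (-3.95, SE 0.75, adjusted p = 0.0274). Cck was at 3695, 4158 and 4706 CPM in Unlabeled cells (0.61, SE 0.10, adjusted p = 0.0151). Without the cells that have deep cortical markers, which number 72 among the Unlabeled, 8 among the RSC-projecting and 4 among the LEC-projecting cells, Cck was at 5535, 5008 and 5573 CPM in Unlabeled cells and its log2 difference was 0.29 (adjusted p = 0.129, within a range of 3.17e-06 to 0.196 over 14 alternatives). The call of Cck was also lost without plate 12 (adjusted p = 0.0539) and without projection mouse 2 (0.196). Those of Adcyap1 and Grp were lost without projection mouse 1 (0.109 and 0.131) and without projection mouse 2 (0.184 and 0.129), and that of Grp also without projection mouse 3 (0.19). Their adjusted p ranged from 1.06e-07 to 0.184 and from 2.02e-07 to 0.19 over 14 alternatives.

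Between LEC-projecting and Unlabeled cells no member was called, and 0.00% of the 13952 genes were (0 genes by edgeR, where 1073 had an unadjusted p under 0.05, 3 genes with the mouse as a block and 103 genes by DESeq2). Scg2 came closest among the members, with 474, 751 and 612 CPM in Unlabeled cells, all below the LEC values, and a log2 difference of 0.52 (SE 0.17, adjusted p = 0.501). Cartpt was at 10.8, 1.07 and 11.96 CPM and Pdyn at 3.33, 3.58 and 0 CPM in Unlabeled cells, and neither was called against RSC-projecting cells (adjusted p = 0.976 and 0.263), nor was Scg2 (0.853). Between LEC-projecting and Unlabeled cells the log2 difference was 0.12 for Cck, 1.08 for Penk, 0.39 for Adcyap1, -0.37 for Grp, -2.79 for Cartpt and 0.54 for Pdyn (adjusted p = 0.61 to 0.988), and their values overlapped between the labels.

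**Figure D4:**
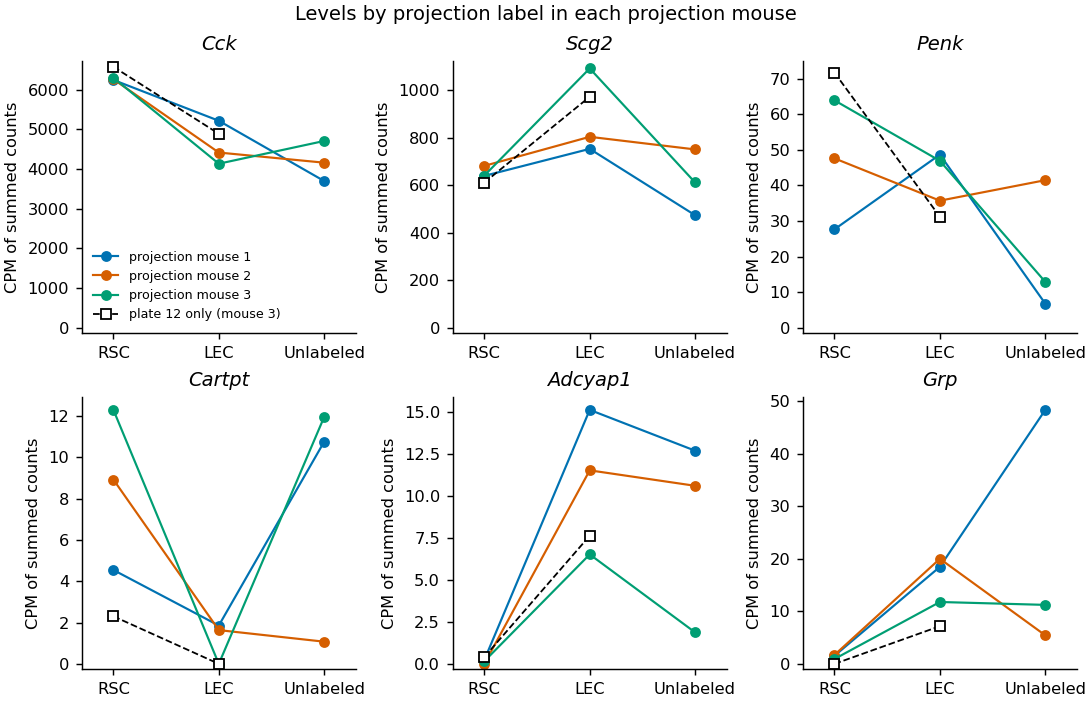
Level of 6 neuropeptide genes by projection label in projection mice 1, 2 and 3, in CPM of summed counts from 0 on linear axes, with squares for the RSC-projecting and LEC-projecting cells of plate 12 alone. Cck was higher, and Adcyap1 and Grp lower, in RSC-projecting than in LEC-projecting cells of each mouse, while Penk has no common order.

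Levels also moved between plates. Outside plate 12, a plate of the projection mice held 1 mouse and 1 label, so library and label cannot be told apart there. Penk stood at 6.78 CPM in plate 13 and at 12.9 CPM in plate 8, both of Unlabeled cells, and at 27.7 to 97.1 CPM in every other plate or label of a plate, with the highest value in plate 1 of the blind mouse. The third plate of Unlabeled cells, plate 9, was at 41.5 CPM, with 246 of its 579 Penk counts from 1 cell. Penk was in 8.75% and 15.3% of the cells of plates 13 and 8 and in 20.3% of those of plate 9. Without the cells with deep cortical markers the Unlabeled cells of projection mice 1, 2 and 3 had 11.2, 50.15 and 15.9 CPM of Penk, so that the values of 2 mice stayed under those of their RSC-projecting cells (29.8 and 63.9 CPM) and LEC-projecting cells (49.3 and 47.6 CPM). The difference of RSC-projecting from Unlabeled cells was not called (log2 difference 1.2, SE 0.54, adjusted p = 0.359). Grp was highest in plate 13 (48.4 CPM) and Scg2 in plate 7 (1181 CPM).

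**Figure D5:**
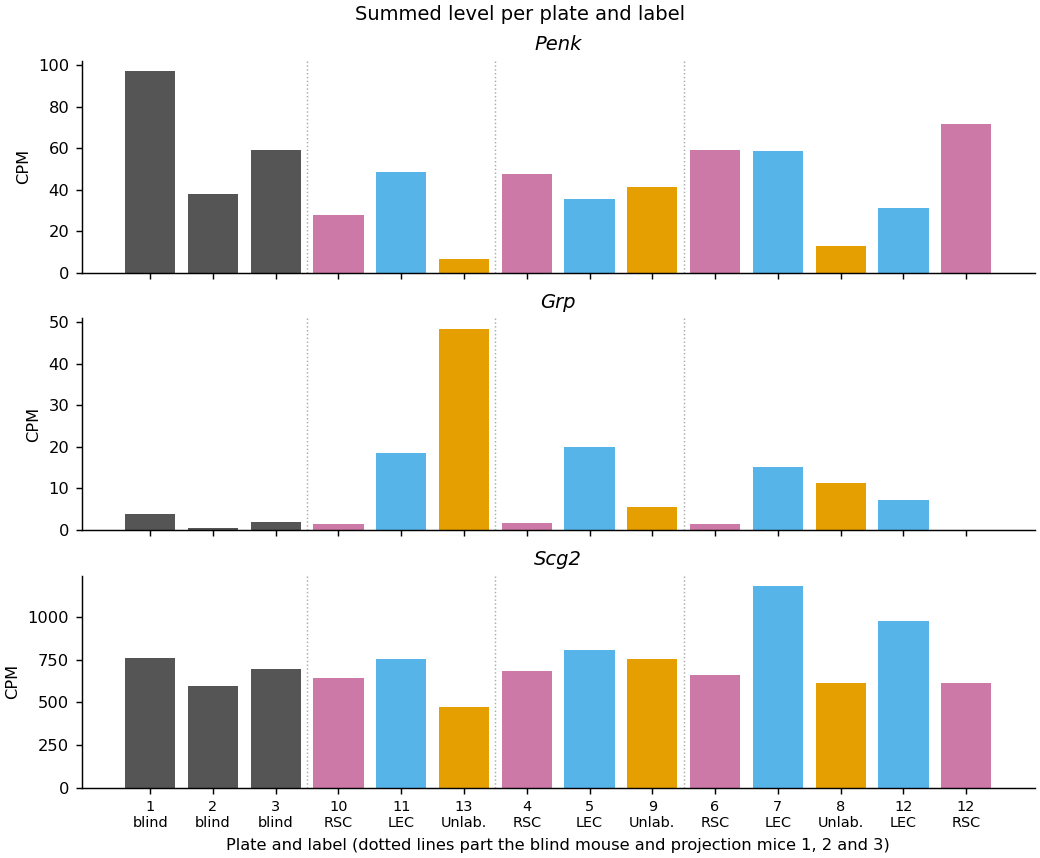
Penk, Grp and Scg2 in each plate, in CPM of summed counts from 0, with plate 12 drawn for its 2 labels and colours for the blind mouse and the labels RSC, LEC and Unlabeled. Penk is lowest in plates 13 and 8 (6.78 and 12.9 CPM), Grp highest in plate 13 (48.4 CPM), and Scg2 highest in plate 7 (1181 CPM).

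Whether RSC-projecting and LEC-projecting cells differed inside a Synpr class was fitted with 4 sums per mouse. Among Synpr-high cells no member was called, and 0.00% of 12393 genes were (0 genes by edgeR, 502 with an unadjusted p under 0.05 and 12 genes by DESeq2). Cck was at 6360, 6641 and 6333 CPM in RSC-projecting and at 6558, 5923 and 5142 CPM in LEC-projecting Synpr-high cells, an overlap, with a log2 difference of 0.13 (95% interval -0.06 to 0.31, adjusted p = 1). Penk was at 30.6, 60.1 and 63.7 CPM against 25.1, 9.54 and 30.4 CPM. Those LEC values rest on 18, 11 and 16 cells, and in projection mouse 3 all 104 counts came from 1 of them (log2 difference 1.23, SE 0.88, adjusted p = 1). Cartpt was at 5.19, 11.3 and 13.05 CPM against 5.56, 9.08 and 0 CPM, and Grp had 12 counts in RSC-projecting and 0 in LEC-projecting Synpr-high cells. In Unlabeled Synpr-high cells Cartpt was at 30.9, 1.71 and 30.6 CPM, from 3, 3 and 9 cells of 18, 21 and 28. Scg2 was at 643, 756 and 641 CPM in RSC-projecting and at 704, 880.5 and 1008 CPM in LEC-projecting Synpr-high cells (-0.35, SE 0.20, adjusted p = 1), and Adcyap1 at 0, 0 and 0.164 against 0.223, 0.908 and 0.585 CPM, from 3 and 5 counts.

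Among Synpr-low cells no member was called either, where 0.186% of 12393 genes were (23 genes, or 15 with the mouse as a block). Cck was at 5420, 4837 and 5719 CPM in RSC-projecting and at 4615, 4083 and 3934 CPM in LEC-projecting Synpr-low cells, values that did not overlap (log2 difference 0.38, SE 0.10, adjusted p = 0.157, or 0.00956 with DESeq2, within a range of 0.00956 to 0.976 over 17 alternatives). Adcyap1 was at 1.85, 0 and 0 CPM, from 3 counts in 1 cell, against 21.8, 13.8 and 7.68 CPM (adjusted p = 0.259, or 0.0468 for means over cells with limma, within a range of 0.0468 to 0.591 over 16 alternatives). Scg2 was at 618, 403 and 634 CPM against 775, 787 and 1109 CPM (-0.65, SE 0.20, adjusted p = 0.239). Penk was at 7.41, 0.673 and 67.8 CPM against 59.2, 41.5 and 50.1 CPM (-0.99, SE 0.90, adjusted p = 0.762). Grp was at 12.3, 0 and 16.3 CPM against 26.7, 24.4 and 14.1 CPM (-1.15, SE 1.56, adjusted p = 0.863), and Cartpt had no count in RSC-projecting and 2 counts in LEC-projecting Synpr-low cells. The RSC-projecting Synpr-low sums hold 12, 14 and 8 cells. Glial and vascular markers summed to 71.4 to 6379 CPM in these sums, against 140 to 283 CPM in the LEC-projecting Synpr-low sums, and their part in the values was not tested. Core cluster markers moved in the direction of Cck and opposite to Adcyap1 here. Of these markers 5 of 9 were called higher in RSC-projecting Synpr-low cells (summed 1265 to 2375 against 337 to 613 CPM), and their part was not tested either. The difference between the 2 classes in the RSC to LEC contrast was tested itself, and no member was called (adjusted p = 0.692 to 0.953 for 6 members, with 0.0403% of 12393 genes called, 5 genes).

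Few cells held counts of more than 1 of the sparser genes. Among the 403 Synpr-high and 520 Synpr-low cells thinned to 20000 counts, 69.5% and 68.8% had no count of Penk, Pdyn, Adcyap1, Grp or Cartpt. A count of 1 of them was seen in 26.8% and 27.5%, and of 2 of them in 3.72% and 3.46%. Pairs with Pdyn, which was found in 13 cells, were not taken. In Synpr-low cells Penk was counted in 3 of 59 cells with Grp (5.08%) and in 17.4% of those without it, and in 7 of 32 cells with Adcyap1 (21.9%) and 15.6% of those without it. In Synpr-high cells Penk was counted in 11 of 40 cells with Cartpt (27.5%) and 21.5% of those without it. Independent counts within a class would put Penk with Grp in 9.42 and with Adcyap1 in 5.11 Synpr-low cells. They would put Penk with Cartpt in 8.83 Synpr-high cells. Of these pairs only Penk and Grp met less often than that. Cells of 1 mouse are not replicates, and these numbers have no test.

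Pdyn was found in 13 kept cells, 6 Synpr-high and 7 Synpr-low. All 7 Synpr-low cells also carried Npy, with 28 to 340 counts and a median of 111, whereas the 440 Synpr-low cells of the projection mice without Pdyn had a median of 4.5 Npy counts and 75.7% of them had any. The 7 cells were all shell-like, the cluster that Npy leads, and the 357 shell-like Synpr-low cells without Pdyn had a median of 31 Npy counts, with 82.6% having any and a highest value of 1437. None of the 7 had a count of Gad1 or Gad2. Of 3 Synpr-high cells of the projection mice with Pdyn, 2 had Npy counts (4 and 7). The 7 cells came from 5 plates and 3 mice, so they were not from 1 library, but the number is small and the pattern was noticed in these cells.

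Tac1, Nts and Crh were each seen in at most 2 of the 769 kept cells of the projection mice. The only cell with Tac1 was an LEC-projecting Synpr-high cell of plate 12 with 44 counts of it and 1082 of Cck. Nts had 16 counts in an RSC-projecting Synpr-high cell of plate 4 and 5 in one of plate 6 that also had 1 count of Gad1, and Crh had 1 count in each of 2 Unlabeled Synpr-low cells of plate 9, which also had 5 and 4 counts of Sst. A left-out cell of the same plate, with both Gad genes, held 130 counts of Crh and 2408 of Sst, and its part in these single counts was not tested. Among 8 cells with both Gad1 and Gad2, which are left out above, levels of these genes were higher. A Pvalb-carrying cell held 193 counts of Tac1, another with 428 counts of Sst held 29 of Nts, and 1 held 43 of Pdyn. Adcyap1, Grp and Cartpt had no count in these 8 cells.

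Genes that act with the peptides were counted by list, with levels as CPM. Of 15 tested precursors of other peptides and secreted ligands, 5 were higher in Synpr-high cells and 1 was lower, with a median log2 difference of 1.19, against 9.21% of all genes called in either direction and a median of -0.000265. The one lower was Npy (10.8 against 509 CPM, log2 difference -5.43, adjusted p = 0.00116). Those higher were Nmb for neuromedin B (71.0 against 4.53 CPM, 3.99), Tac2 for neurokinin B (12.8 against 0.545 CPM, 5.15), Kiss1 for kisspeptin (12.4 against 2.497 CPM, 2.37) and, named after their values were seen, Cbln2 (1.76) and the neurotrophin gene Bdnf (1.61). Several peptide genes besides Cartpt thus differed between the classes in either direction.

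Genes were called in 3 lists that concern the dense-core vesicle machinery, to be read against the same 9.21% of all genes. Of 7 granins and related genes 2 were called, both higher in Synpr-high cells. One was Chgb for chromogranin B (3257 against 1017 CPM, log2 difference 1.74, adjusted p = 0.000399). The other was Gnas (0.39, adjusted p = 0.0328), listed as a related gene, and counts per gene do not tell its products apart. Of 11 peptide processing genes 2 were called, again higher in Synpr-high cells: Pam, whose enzyme amidates the end of peptides such as cholecystokinin (129 against 62.4 CPM, 1.10, adjusted p = 0.000785), and the convertase gene Pcsk4 (1.92, adjusted p = 0.00629). Of 12 genes of dense-core vesicle release, Cadps2, which primes vesicles for release, was higher in Synpr-high cells (291 against 46.2 CPM, 2.71, adjusted p = 1.81e-05), and the synaptotagmin genes Syt10 (-1.97, adjusted p = 0.00867) and Syt7 (-0.51, adjusted p = 0.0493) were lower.

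Receptors for the members were called for 3 of 11 genes, against 9.21% of all genes. Oprk1, the kappa opioid receptor on which the products of Pdyn act, was at 464 CPM in Synpr-high and 74.2 CPM in Synpr-low cells (log2 difference 2.69, adjusted p = 6.29e-05). Cckbr, the main cholecystokinin receptor of the brain, was at 29.3 and 157 CPM (-2.37, adjusted p = 0.00219), and Adcyap1r1, the receptor preferred by PACAP, at 35.6 and 79.8 CPM (-1.11, adjusted p = 0.033). Cckbr was thus lower in the class with more Cck, and Adcyap1r1 higher in the class that carried Adcyap1. Synpr-low cells include the deep-cortical-like cells, which had little Adcyap1 and the lowest Cck, and receptor levels are not given by cluster. Between RSC-projecting and LEC-projecting cells 4.15% of all 13952 genes tested were called. The lists held 17 tested precursors and ligands, 7 granins and related genes, 11 processing, 12 release and 12 receptor genes. Those called were Npy (-5.11), Nmb (2.61), Npw (4.31), Cbln2 (1.55), Chgb (0.96), Pam (0.74), Cadps2 (1.67), Oprk1 (1.49), Cckbr (-2.56) and Tacr1, a receptor for substance P (-3.03). Adcyap1r1 was not among them. Npw was at 7.75 against 0.402 CPM and Tacr1 at 1.05 against 9.11 CPM, so both were low.

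Likeness of pattern was measured as Pearson's r of log2(CPM + 1) over 20 sums of mouse, label and Synpr class, among 6717 genes with a mean of at least 20 CPM, and is a description, since the sums share mice, plates and depth. Closest to Cck were Slc24a2 (0.90) and Camk2n1 (0.88), to Scg2 Chrm2 (0.79) and Ehd3 (0.73), and to Penk Chpt1 (0.78) and Appbp2 (0.77). Closest to Adcyap1 were Gaa (0.89) and Rabl5 (0.79), to Grp Dab1 (0.90) and Sorl1 (0.88), to Cartpt Rock2 (0.84) and Arhgef17 (0.83), and to Pdyn Kifc2 (0.70) and Cc2d1a (0.68). Among the members, Adcyap1 and Grp had r = 0.77 with each other and -0.81 and -0.70 with Cck, and Penk and Scg2 had r = 0.59.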

How the data were processed

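The deposited tables hold counts per gene and cell with no normalization by the authors, 1 table for the blind mouse (16786 gene rows) and 1 for the projection mice (23216), with 16575 genes in both. The reads were 3′-end barcoded, amplified by 20 PCR cycles and aligned with STAR by the authors, and the submitters' processing notes name the build NCBIM37 and Seurat, without versions. No row lacked a gene name, no column belonged to another series, and spike-in rows were kept out of totals. The members and lists were chosen with earlier results of these data known. From the counts, cells were kept where Snap25 and Slc17a7 each had 1 count or more and Gad1 and Gad2 were not both counted, and counts were summed per mouse and class or label over at least 5 cells. The sums were tested, two-sided, with edgeR 4.0.16 (quasi-likelihood, TMM, filterByExpr, Benjamini-Hochberg threshold 0.05) in R 4.3.3, over all genes of the fit. Alternatives used DESeq2 1.42.0, limma 3.58.1 on log2 of the mean CPM per cell + 1, no filter, cells thinned to 20000 counts, Synpr limits of 100 and 500 CPM, at least 2 counts of the 2 marker genes, the highest cell of a member left out, spike-ins in the CPM total, the mouse as a block and each mouse left out.

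Sums of 1 mouse come from the same animal, so the mouse number pairs them. Deviations of the Synpr-high and Synpr-low sums of a mouse correlated at a median of 0.155 (0.135 to 0.468), against -0.0849 between mice, and those of the label sums at a median of 0.034. Shares have 95% exact Clopper-Pearson intervals, and a count of 0 was read as allowing 3 counts. Summed totals per mouse were 7379776 to 54093841 counts, so values of the blind mouse are the least precise. Clusters were made in Seurat 5.3.0 (2000 variable features, 30 components, resolution 0.1) on all rows but the 10 members, and no doublets were called in these hand-picked cells. Of each companion list the text names up to 4 called genes with the largest change per comparison, and for each member the 2 most similar genes. The fit was tested on simulated counts.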

Additional observations from a re-analysis of the deposited data

Results flagged for a closer look

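In 7 of 31 groups of samples 1 value stood apart from the others by Dixon's ratio. Chance flags about 1 in 20 groups of continuous values (1.55 of 31), which is no guide for genes counted in 1 or 2 cells, since any count then stands apart from plates at 0. Tac1 stood at 2.7 CPM in plate 12 and Crh at 0.1432 CPM in plate 9, each against 0 in the other 9 plates of the projection mice. Nts was at 2.267 CPM in plate 4, and Grp in the Synpr-high cells of projection mouse 2 was at 0.9637 CPM, from 12 counts of 1 cell. Grp was at 48.4 CPM in plate 13, against 20.02 CPM at most in the other plates of the projection mice, and 16 of its 80 cells carried it. Scg2 was at 1181 CPM in plate 7, against 473.7 to 809 CPM in the other plates. Cartpt was at 14.92 CPM in the Synpr-high cells of projection mouse 3, against 7.308 to 8.578 CPM in the other mice.

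Cells outside the excitatory set also held counts of these genes. In the 8 cells with both Gad1 and Gad2, Tac1 was at 135.8, Crh at 91.49, Pdyn at 30.26 and Nts at 20.41 CPM, each from 1 cell, against 0.3543, 0.01611, 1.788 and 0.1691 CPM in the kept cells of the projection mice. The same 8 cells had 1389.9 CPM of Scg2, 414.5 CPM of Cck and 21.82 CPM of Penk, where kept cells had 744.7, 5000.1 and 39.27 CPM. In 79 other cells of the projection mice without Snap25 or Slc17a7, whose median total was 3867 counts, Cck was at 637.2, Scg2 at 156.6 and Penk at 13.5 CPM. In 18 such cells of the blind mouse, with a median total of 15460 counts, Cck was at 3877.7, Scg2 at 715.9 and Penk at 231.2 CPM, and Penk came from 7 cells.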

How the results depend on the processing

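Alternatives without plate 12, without cells with deep cortical markers or with cells without bead label alone were chosen after the data were seen. The calls of members that were lost stand beside the results above, with their ranges, and the mouse as a block changed no call of a member. Between the Synpr classes 1235 genes were called, 2123 with the replicate block, 598 in cells without bead label and 598 to 1653 with 1 mouse left out. Between RSC-projecting and LEC-projecting cells 579 were called, 1170 with DESeq2, 921 with limma and 61 to 405 with 1 mouse left out, and of the members 3 were called, 5 with DESeq2 and 0 to 3 with 1 mouse left out. Between RSC-projecting and Unlabeled cells 237 were called, 684 with DESeq2, 481 thinned, 496 with limma, 142 without plate 12, 123 without deep cortical cells and 0 to 47 with 1 mouse left out, and of the members 3, or 0 to 2 with 1 mouse left out. Between LEC-projecting and Unlabeled cells 0 were called, 103 with DESeq2, 15 unfiltered, 3 with the replicate block, 43 thinned, 34 with limma and 0 to 2 with 1 mouse left out. Within Synpr-high cells 0 were called, 12 with DESeq2 and 1 unfiltered. Within Synpr-low cells 23 were called, 297 with DESeq2, 65 unfiltered, 15 with the replicate block, 37 thinned, 44 with limma, 15 with spike-ins in the total, 13 without plate 12 and 0 to 5 with 1 mouse left out, and 1 member was called with DESeq2 and 1 with limma. The shares of cells moved on thinning, to 98.0% for Cck, 18.5% for Penk and 4.29% for Cartpt. Signs turned for members that were not called. Penk between Synpr classes was at 0.41 thinned, 0.24 with limma, 0.02 without its highest cell, 0.08 at 500 CPM, 0.00 with spike-ins, and -0.14 to 0.13 with 1 mouse left out. Pdyn was at 0.73 in cells without bead label, and Scg2 at -0.06 without deep cortical cells and -0.10 to 0.24 with 1 mouse left out, the lowest without the blind mouse. Between RSC-projecting and LEC-projecting cells Penk was at -0.02 with the replicate block, -0.04 without plate 12, and -0.14 to 0.47 with 1 mouse left out. Against Unlabeled cells Scg2 was at -0.08 without deep cortical cells and -0.02 to 0.27 with 1 mouse left out, and Cartpt at -0.03 and at -0.39 to 0.74. Adcyap1 within Synpr-high cells was at 1.30 without its highest cell. The causes were not tested.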
